A study of Marchantia polymorpha with 18 samples.

Results

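Expression of 4 transcription factor genes, MpWRKY7 (Mp3g17660), MpBHLH2 (Mp2g00890), MpBHLH3 (Mp2g00910) and Mp1R-MYB16 (Mp5g18370), was followed in the thallus, the flat haploid plant body, of Marchantia polymorpha, a liverwort. The genes were chosen because earlier results of these libraries showed them to be higher in wounded lobes, so their difference between damaged and intact thallus is described here without a test. They are 4 of the 19355 identifiers in the count table and 4 of the 13450 genes that had enough counts to be tested. Wild-type (WT) plants were compared with Mpglr-9, 1 deletion allele of the glutamate receptor-like gene MpGLR made with CRISPR-Cas. All plants had grown on soil for 28 days. Intact groups were unwounded plants. In wounded plants 2 thallus lobes were crushed with serrated forceps, and 4 h later these lobes (damaged) and the untouched lobes next to them (systemic) were collected, at the same time as the intact plants. Each of the 6 groups held 3 replicates, each of which combined tissue of 9 plants. The same wounded plants gave damaged and systemic lobes, and only the replicate number ties their libraries together.

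WRKY proteins are plant transcription factors named for a conserved peptide motif, and they bind W-box elements in promoters. In flowering plants many WRKY genes respond to wounding and to pathogens. Basic helix-loop-helix (bHLH) proteins bind E-box elements as dimers, and bHLH factors of the MYC type carry the transcriptional response to jasmonate-type signals in flowering plants and in Marchantia. MYB proteins bind DNA through MYB repeats. The 1R class has a single repeat, and in flowering plants it holds clock proteins such as CCA1.

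The libraries held 17312755 to 30690205 counts, so that 3 counts, taken here as the detection limit, corresponded to 0.0974 to 0.178 CPM, the count of a gene scaled to a common library total. This limit covers counting error only. In a principal component analysis of log2 CPM the first axis (68.7% of the variance) set damaged libraries apart, at 56.4 to 81.1 against -38.3 to -29.7 in the other 12 libraries. Genes of photosynthetic thallus were detected in every group. The summed level of the 3 genes of that list ran from 652 to 703 CPM in intact and from 289 to 398 CPM in damaged WT libraries. MpGLR itself was not analysed here, so no expression value checks the genotype labels.

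MpWRKY7 was close to the detection limit in unwounded thallus and much higher in crushed lobes. In thallus measured as a whole, more RNA of a gene per cell and more cells of a type that expresses it cannot be told apart. In intact WT libraries it had 0.21, 0.35 and 0.16 CPM (replicates 1, 2 and 3), which were only 6, 8 and 5 counts. In damaged WT libraries it had 10.37, 5.32 and 4.18 CPM, from 175, 129 and 94 counts. All 3 damaged libraries were above all 3 intact libraries, and replicate 1 was the highest of the damaged ones. Damaged lobes of Mpglr-9 had 6.49, 4.98 and 2.99 CPM, against 0.11, 0.38 and 1.36 CPM in intact Mpglr-9 plants. The groups did not overlap there either, but intact replicate 3, with 37 of the 50 counts of its group, stood above the other 2 intact mutant libraries. The log2 fold change from intact to damaged was 4.79 ± 0.74 (SE; 27.6-fold) in WT and 2.97 ± 0.66 (7.82-fold) in Mpglr-9. Without intact Mpglr-9 replicate 3 the mutant value was 4.31.

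MpBHLH2 and MpBHLH3 were well above the detection limit in intact thallus and several-fold higher in crushed lobes. MpBHLH2 had 8.97, 12.4 and 12.9 CPM in intact and 58.9, 49.3 and 35.3 CPM in damaged WT libraries. In Mpglr-9 the values were 9.44, 12.4 and 14.2 CPM in intact and 61.5, 46.6 and 36.6 CPM in damaged libraries. Intact and damaged libraries did not overlap in either genotype, and damaged replicate 1 was the highest in both. The log2 fold change of MpBHLH2 was 2.06 ± 0.23 (SE; 4.17-fold) in WT and 2.01 ± 0.23 (4.02-fold) in Mpglr-9.

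MpBHLH3 had the highest ratio of the 4 genes between the lowest damaged and the highest other library, at 4.35. It had 10.05, 14.2 and 10.3 CPM in intact and 125.5, 91.4 and 66.3 CPM in damaged WT libraries. Mpglr-9 had 15.2, 13.2 and 11.2 CPM in intact and 116.3, 93.04 and 78.1 CPM in damaged libraries. Again no damaged library overlapped with an intact one, and replicate 1 was the highest damaged library of each genotype. The log2 fold change was 3.04 ± 0.28 (SE; 8.22-fold) in WT and 2.86 ± 0.27 (7.24-fold) in Mpglr-9.

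Mp1R-MYB16 had the smallest fold change of the 4 genes and the tightest replicates. Its levels were 38.5, 41.1 and 44.9 CPM in intact and 123.8, 112.9 and 105.7 CPM in damaged WT libraries. In Mpglr-9 they were 38.9, 39.4 and 46.8 CPM in intact and 130.4, 107.7 and 122.01 CPM in damaged libraries. The damaged libraries lay well above the intact ones in both genotypes, and within each of the 6 groups the coefficient of variation was at most 10.6%. The log2 fold change was 1.46 ± 0.08 (SE; 2.75-fold) in WT and 1.52 ± 0.08 (2.88-fold) in Mpglr-9.

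**Figure D1:**
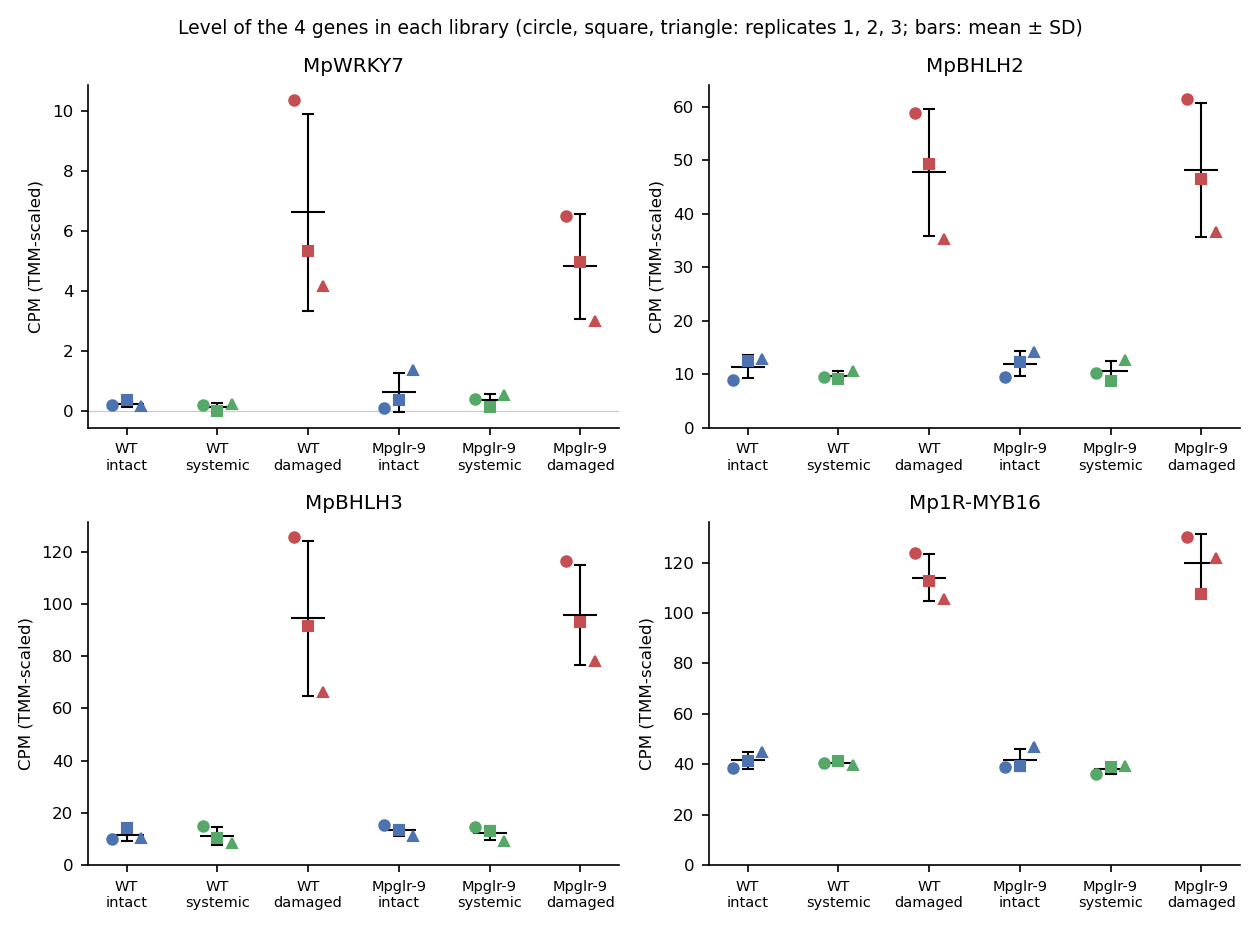
Level of each of the 4 genes in the 18 libraries, in CPM on TMM-scaled library sizes (linear axis from 0), by genotype and condition. Symbols are replicates 1, 2 and 3 and black bars are mean ± SD (n = 3). The 6 damaged libraries (red) lie above the other 12 in every panel, by a factor of 2.20 for MpWRKY7 and of 4.35 for MpBHLH3 between the lowest damaged and the highest other library.

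All 6 damaged libraries were above the other 12 for each of the 4 genes, a pattern that 21.4% of the tested genes shared. All 3 damaged libraries were above the 3 intact ones for 29.8% of tested genes in WT and for 30.6% in Mpglr-9. At an adjusted p under 0.05, 55.5% of all tested genes were called in damaged against intact WT thallus, 27.7% higher and 27.8% lower. In Mpglr-9 54.8% were called, 27.6% higher and 27.2% lower. Since the 4 genes were chosen on this contrast, nothing is read from their shares. Ranked by the rise from intact to damaged WT thallus among 13450 genes, MpWRKY7 was at 86, MpBHLH3 at 219, MpBHLH2 at 420 and Mp1R-MYB16 at 677. In Mpglr-9 the ranks were 229, 243, 423 and 602 in the same order of genes. The lowest damaged library had 2.99 CPM of MpWRKY7 against 1.36 CPM in the highest other library. For MpBHLH2 these values were 35.3 and 14.2 CPM, for MpBHLH3 66.3 and 15.2 CPM, and for Mp1R-MYB16 105.7 and 46.8 CPM.

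The ordering of the groups was alike for the 4 genes. Both damaged groups came first, with WT above Mpglr-9 for MpWRKY7 and Mpglr-9 above WT for the other 3 genes, and the libraries of these groups overlapped for each gene. MpBHLH3, for example, had 95.8 ± 19.2 CPM (SD, n = 3) in damaged Mpglr-9 and 94.4 ± 29.7 CPM in damaged WT lobes. Intact and systemic groups of both genotypes followed, with intact Mpglr-9 first among them for each gene, at 11.2 ± 3.41 to 13.2 ± 2.01 CPM for MpBHLH3, at 9.73 ± 0.813 to 12.01 ± 2.41 CPM for MpBHLH2 and at 38.1 ± 1.88 to 41.7 ± 4.42 CPM for Mp1R-MYB16. For MpWRKY7 they ran from 0.144 ± 0.125 to 0.613 ± 0.657 CPM. Systemic WT came last for MpWRKY7, MpBHLH2 and MpBHLH3, and systemic Mpglr-9 for Mp1R-MYB16. Among these 4 intact and systemic groups the libraries of neighbours in the order overlapped, except that the 3 systemic Mpglr-9 libraries were below the 3 systemic WT libraries for Mp1R-MYB16, by 39.4 against 39.6 CPM at the nearest, a difference between genotypes that was not called.

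Systemic lobes were set against intact plants to ask whether the response spread through the thallus by 4 h. None of the 4 genes was called different between systemic and intact thallus in either genotype. This comparison shares the intact libraries with the one on which the genes were chosen. Systemic WT libraries had 0.21, 0 and 0.22 CPM of MpWRKY7, and the library with no count allows up to 0.160 CPM. Systemic Mpglr-9 libraries had 0.41, 0.12 and 0.53 CPM, inside the range of the intact mutant libraries. MpBHLH2 had 9.54, 9.03 and 10.6 CPM in systemic WT and 10.2, 8.77 and 12.7 CPM in systemic Mpglr-9 libraries, which overlapped with intact plants in both genotypes.

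MpBHLH3 had 14.98, 10.2 and 8.39 CPM in systemic WT and 14.7, 12.9 and 9.15 CPM in systemic Mpglr-9 libraries. Mp1R-MYB16 had 40.5, 41.2 and 39.6 CPM in systemic WT and 36.0, 39.01 and 39.4 CPM in systemic Mpglr-9 libraries. Both genes overlapped between systemic and intact libraries. In WT the log2 difference of systemic from intact was -0.58 ± 1.00 (SE) for MpWRKY7, -0.23 ± 0.24 for MpBHLH2, -0.02 ± 0.30 for MpBHLH3 and -0.04 ± 0.09 for Mp1R-MYB16 (edgeR quasi-likelihood test, adjusted p = 1 for each). In Mpglr-9 these differences were -0.81 ± 0.78, -0.19 ± 0.24, -0.11 ± 0.29 and -0.13 ± 0.09 (adjusted p = 0.933, 0.955, 0.989 and 0.874).

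The precision of these tests differed greatly between the genes. For Mp1R-MYB16 the 95% interval of the systemic to intact ratio in WT ran from 0.868 to 1.09, and for MpBHLH2 from 0.612 to 1.19. For MpBHLH3 it ran from 0.662 to 1.48. For MpWRKY7 it ran from 0.172 to 2.60, so that changes of either sign lie within these bounds. Over all tested genes, edgeR called 0 in this comparison in either genotype (0%), with 353 genes in WT and 810 in Mpglr-9 at an unadjusted p under 0.05. DESeq2 called 6 and 0 genes, and limma-voom 0 and 0. Leaving out systemic WT replicate 2, in which MpWRKY7 had no count, moved the WT difference of MpWRKY7 to -0.11. Without intact Mpglr-9 replicate 3 the mutant difference of MpWRKY7 turned from -0.81 to 0.52.

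Mpglr-9 was compared with WT within each condition to ask whether MpGLR contributes to the response. None of the 4 genes was called different between the genotypes in any condition. In damaged lobes the log2 difference of Mpglr-9 from WT was -0.45 ± 0.57 (SE) for MpWRKY7 (edgeR, adjusted p = 0.974), 0.02 ± 0.21 for MpBHLH2, 0.02 ± 0.24 for MpBHLH3 (adjusted p = 1 for both) and 0.07 ± 0.08 for Mp1R-MYB16 (adjusted p = 0.964). The 95% interval of the mutant to WT ratio in damaged lobes was 0.942 to 1.18 for Mp1R-MYB16, 0.757 to 1.35 for MpBHLH2, 0.730 to 1.42 for MpBHLH3 and 0.337 to 1.59 for MpWRKY7.

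In intact plants the difference was 1.37 ± 0.80 for MpWRKY7, 0.07 ± 0.24 for MpBHLH2, 0.21 ± 0.29 for MpBHLH3 and 0.01 ± 0.08 for Mp1R-MYB16 (adjusted p = 1 for each). The value of MpWRKY7 rested on intact Mpglr-9 replicate 3, and it was 0.04 without that library. Systemic lobes gave 1.14 ± 0.96 for MpWRKY7 (adjusted p = 0.983), 0.11 ± 0.25 for MpBHLH2, 0.12 ± 0.30 for MpBHLH3 and -0.09 ± 0.09 for Mp1R-MYB16 (adjusted p = 0.986 for Mp1R-MYB16). Without systemic WT replicate 2 the systemic value of MpWRKY7 was 0.67. Averaged over the 3 conditions the genotypes differed by 0.69 ± 0.46 for MpWRKY7 (adjusted p = 0.738), which became 0.24 without intact Mpglr-9 replicate 3. The averages of MpBHLH2 and MpBHLH3 were 0.07 ± 0.13 and 0.12 ± 0.16.

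Few genes of the whole table separated the genotypes. Counts called were 3 in intact plants (0.0223% of tested genes), 4 in damaged lobes (0.0297%), 7 in systemic lobes (0.052%) and 42 for the mean of the conditions (0.312%, with 0.238% higher and 0.0743% lower in Mpglr-9). By a rule given below, replicate numbers were taken to pair the WT and Mpglr-9 libraries in intact plants and in damaged lobes. Libraries of equal number deviated together there, but those of unequal number were not compared. A fit on these pairs of groups with the replicate number as a block called 10 genes in intact plants and 47 in damaged lobes. MpBHLH2, MpBHLH3 and Mp1R-MYB16 were not among them (adjusted p from 0.809 to 0.994), nor was MpWRKY7 in damaged lobes (adjusted p = 0.496). MpWRKY7 was too low for that fit in intact plants.

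The difference in response was also tested directly, as the change from intact to damaged in Mpglr-9 minus that in WT. On the log2 scale it was -1.82 ± 0.99 (SE) for MpWRKY7, with an unadjusted p = 0.0844 from edgeR and an adjusted p = 1. Without intact Mpglr-9 replicate 3 this value was -0.49. MpBHLH2 gave -0.05 ± 0.32, MpBHLH3 gave -0.18 ± 0.38 and Mp1R-MYB16 gave 0.07 ± 0.12, with none called. The 95% interval for Mp1R-MYB16, from 0.893 to 1.23 as a ratio of the 2 fold changes, was the narrowest. For the change from intact to systemic, the difference between genotypes was -0.24 ± 1.34 for MpWRKY7, 0.04 ± 0.34 for MpBHLH2, -0.09 ± 0.41 for MpBHLH3 and -0.09 ± 0.12 for Mp1R-MYB16. No gene of the table was called in either interaction by edgeR (0%), DESeq2 or limma-voom, with 335 and 356 genes at an unadjusted p under 0.05 in edgeR.

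**Figure D2:**
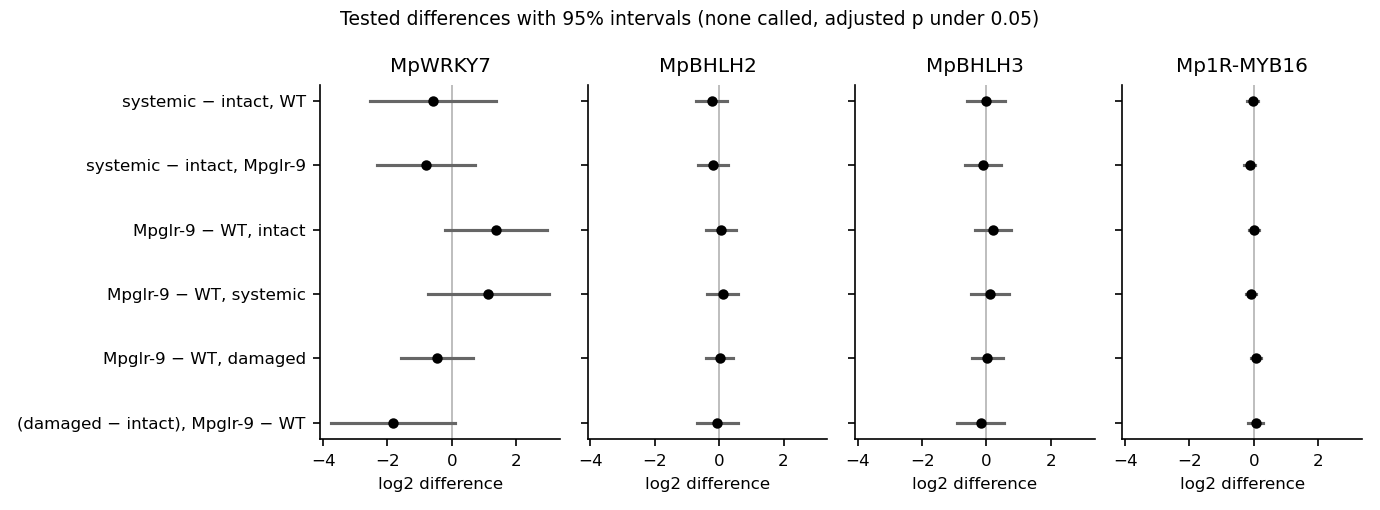
Log2 differences of the 4 genes in the tested comparisons, as points with 95% intervals (estimate ± 1.96 SE) from the edgeR fit to 18 libraries. The bottom line is the damaged response in Mpglr-9 minus that in WT. Intervals of Mp1R-MYB16 are short and those of MpWRKY7 wide, and none of the 24 differences was called.

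Intact Mpglr-9 replicate 3, the library that decided these MpWRKY7 values, was also apart for another WRKY gene, which was chosen after its values were seen. MpWRKY3 (Mp5g05560), too low to be tested, had 75 counts (2.75 CPM) in that library and 2 to 9 counts in each of the other 17 libraries. MpDIR51 (Mp6g11930), a dirigent protein gene, ran from 0.214 to 1.80 CPM within the intact mutant group. It was picked as the gene most like MpWRKY7 over these same 18 libraries (r = 0.973), so nothing further is read from its spread. MpBHLH2, MpBHLH3 and Mp1R-MYB16 had 14.2, 11.2 and 46.8 CPM in intact Mpglr-9 replicate 3, which is the highest of the 3 libraries for MpBHLH2 and Mp1R-MYB16 and the lowest for MpBHLH3. On the second principal component (9.73% of the variance) intact replicate 3 was at 29.8 in Mpglr-9 and 36.9 in WT. The other intact libraries were at -30.9 to -17.7. Intact WT replicate 3 had 0.16 CPM of MpWRKY7. What set intact Mpglr-9 replicate 3 apart was not tested.

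Replicates of the damaged groups differed in a shared way. MpWRKY7, MpBHLH2 and MpBHLH3 were highest in damaged replicate 1, intermediate in replicate 2 and lowest in replicate 3 in both genotypes, an order found for 9.93% of tested genes. For Mp1R-MYB16 replicate 1 was the highest in both genotypes, which held for 19.1% of tested genes, while replicates 2 and 3 changed places between WT and mutant. The highest damaged WT library had 2.48 times the MpWRKY7 level of the lowest, against 1.67 times for MpBHLH2, 1.89 times for MpBHLH3 and 1.17 times for Mp1R-MYB16. In Mpglr-9 these ratios were 2.17, 1.68, 1.49 and 1.21.

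The position of the damaged libraries on the first principal component followed the same numbers. It was 81.1, 68.3 and 56.4 for WT replicates 1, 2 and 3, and 79.0, 66.0 and 56.8 for those of Mpglr-9. Coefficients of variation in damaged lobes differed between the genes, at 49.8% in WT and 36.4% in Mpglr-9 for MpWRKY7 and at 8.02% and 9.54% for Mp1R-MYB16. A different order was seen in intact plants, where MpBHLH2 and Mp1R-MYB16 were highest in replicate 3 and lowest in replicate 1 in both genotypes, as were 6.89% of tested genes. The part of the first component in these orders was not tested.

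**Figure D3:**
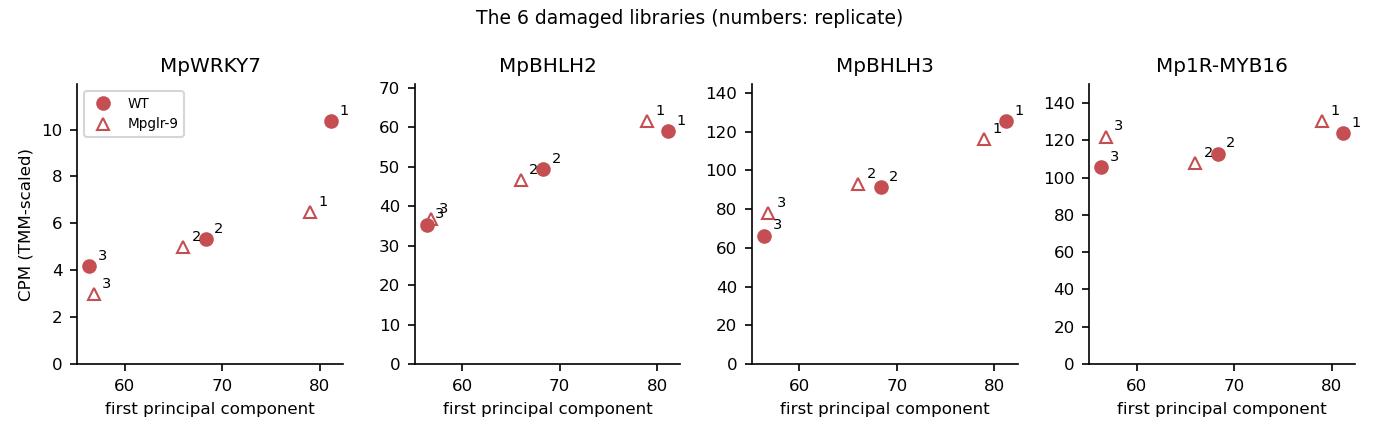
Level of each gene (CPM, axis from 0) in the 6 damaged libraries against their position on the first principal component (log2 CPM of all tested genes). Numbers are replicates, filled circles WT and open triangles Mpglr-9. Libraries numbered 1, at 81.1 and 79.0, have the highest level of each gene in their genotype, and those numbered 3, at 56.4 and 56.8, the lowest of all genes shown except Mp1R-MYB16 in Mpglr-9.

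MpBHLH2 and MpBHLH3 lie close together in the order of locus numbers, with 1 identifier between them, and the next bHLH gene, MpBHLH4 (Mp2g00930), follows 2 identifiers after MpBHLH3. MpBHLH4 had 1.58, 3.64 and 5.42 CPM in intact WT libraries. In damaged WT libraries it had 426.8, 372.8 and 290.6 CPM, and in damaged Mpglr-9 libraries 465.9, 387.9 and 327.1 CPM. Damaged and intact libraries were far apart, and the order of the damaged replicates was that of MpBHLH2 and MpBHLH3. The log2 fold change of MpBHLH4 was 6.67 ± 0.37 (SE) in WT and 7.72 ± 0.40 in Mpglr-9 (edgeR, adjusted p = 7.2e-09 and 3.8e-09).

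The identifiers between the 3 bHLH genes, which carry no symbol, also rose. Mp2g00900, between MpBHLH2 and MpBHLH3, had no count in the 3 intact WT libraries and 21, 31 and 19 counts in damaged ones. In Mpglr-9 it had 1, 5 and 1 counts in intact and 25, 19 and 12 in damaged libraries. Mp2g00920, between MpBHLH3 and MpBHLH4, had 0, 0 and 1 counts in intact WT and 51, 71 and 39 counts in damaged WT libraries. Both were called higher in both genotypes. They passed the filter for testing only through the damaged libraries, so these calls were largely fixed in advance and add no support. The identifiers flanking the 5 did not share this. Mp2g00860 was not called (log2 fold change -0.40 ± 0.23, adjusted p = 0.153 in WT), Mp2g00870 and Mp2g00880 were too low to be tested, and Mp2g00940 had no count in any library. Strand use in the counting is not given in the sources used here, and neighbouring genes of near-identical sequence may share or lose reads, so the values of these 5 identifiers may not be fully separate.

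MpBHLH3 gained reads relative to MpBHLH2 in damaged lobes. There were 1.85 to 2.13 reads of MpBHLH3 for each read of MpBHLH2 in the 6 damaged libraries, with a mean of 1.96 ± 0.15 (SD, n = 3) in WT and 2.01 ± 0.12 in Mpglr-9. In the other 12 libraries this ratio lay between 0.723 and 1.62. The libraries numbered 3 were the lowest in each of these 4 groups, at 0.796, 0.790, 0.789 and 0.723, and the other 8 libraries had 1.07 or more. Gene lengths were not used here, so the ratio compares the libraries and not the levels of the 2 genes. It was formed from the contrast that chose the genes, and it is given without a test.

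**Figure D4:**
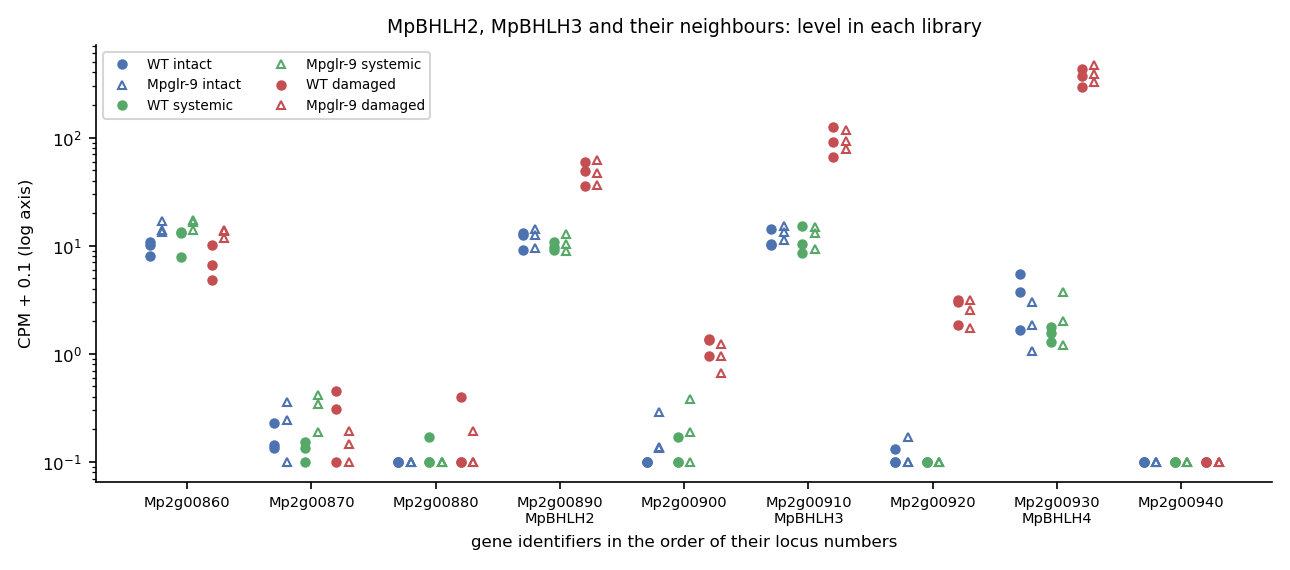
Level of MpBHLH2, MpBHLH3 and the identifiers around them in each library, as CPM + 0.1 on a log axis, in the order of locus numbers. Filled circles are WT and open triangles Mpglr-9, with colours for the 3 conditions. From Mp2g00890 to Mp2g00930 each identifier is higher in all 6 damaged libraries than in the other 12, and Mp2g00940 is at 0 throughout.

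The neighbours of the other 2 genes gave a mixed picture. Of the 19 distinct identifiers within 3 steps of the 4 genes, 12 were tested, and 7 of these were called higher in damaged lobes in both genotypes and 0 lower in both. Of all tested genes 24.6% were called higher and 23.7% lower in both. The 7 include Mp2g00900 and Mp2g00920, which were tested only because of their damaged libraries, so nothing is read from this count. MpPPO22 (Mp5g18380), a polyphenol oxidase gene directly beside Mp1R-MYB16, had 155.1, 168.8 and 250.7 CPM in intact and 4347, 3959 and 3781 CPM in damaged WT libraries. Polyphenol oxidases oxidise phenolic compounds to quinones. The log2 fold change of MpPPO22 was 4.39 ± 0.19 in WT and 4.99 ± 0.20 in Mpglr-9 (edgeR, adjusted p = 1.8e-10 and 6.2e-11).

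On the other side of Mp1R-MYB16, Mp5g18360 and Mp5g18350 rose by smaller amounts, with log2 fold changes of 0.49 ± 0.05 and 0.88 ± 0.10 in WT. MpDIR29, a dirigent protein gene 3 steps away, was not called, at 0.64 ± 0.51 (adjusted p = 0.307). The tested identifiers next to MpWRKY7, Mp3g17650 and Mp3g17640, were not called either, with log2 fold changes of -0.22 ± 0.10 and 0.00 ± 0.08 in WT (adjusted p = 0.0807 and 0.994). MpFAD8, a gene named as a fatty acid desaturase 3 steps from MpWRKY7, rose from 73.9 ± 1.38 to 252.7 ± 59.0 CPM in WT (SD, n = 3). Its log2 fold change was 1.77 ± 0.19 in WT and 2.08 ± 0.19 in Mpglr-9.

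Most of the other tested WRKY genes were higher in crushed lobes. Leaving out MpWRKY7, 11 of the family's genes were tested, and 9 rose, 0 fell and 2 were not called in WT, with a median log2 fold change of 0.73 against -0.03 for all tested genes. The share that rose was 81.8%, beside 27.7% of all tested genes. In Mpglr-9 10 rose, 0 fell and 1 was not called (90.9%, beside 27.6%; median 0.87 against -0.02). The same 9 genes rose in both genotypes, as did 24.6% of all tested genes. MpWRKY10 rose most among these in WT, from 20.9 ± 0.838 to 66.5 ± 14.5 CPM (SD, n = 3). This was 1.66 ± 0.17 (SE) on the log2 scale, or 3.16-fold, with an adjusted p = 7.6e-07 from edgeR. MpWRKY13 and MpWRKY12 rose 2.98-fold and 2.53-fold in WT. MpWRKY6 was not called in either genotype, with a log2 fold change of 0.16 ± 0.75 in WT. MpWRKY14 was called in Mpglr-9 (0.87, adjusted p = 0.0106) and had 0.50 ± 0.27 in WT (adjusted p = 0.122), and no WRKY gene was called for a difference in response between the genotypes.

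MpWRKY7 remained a small part of the family's reads. It held 0.0123% to 0.0284% of WRKY reads in intact WT libraries and 0.180% to 0.358% in damaged ones. The exact 95% binomial interval for damaged WT replicate 1, the highest, was 0.307% to 0.415%, which covers counting error only and leaves the other 2 damaged WT libraries outside. Reads of the whole family rose from 1293 ± 66.8 to 2577 ± 294.9 CPM in WT (SD, n = 3). MpWRKY4 had no count in any library.

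Calls in the bHLH family were in both directions. Leaving out MpBHLH2 and MpBHLH3, 35 of its genes were tested in damaged against intact WT thallus, of which 12 rose, 10 fell and 13 were not called (median log2 fold change 0.06). These were 34.3% and 28.6% of the family, beside 27.7% higher and 27.8% lower over all tested genes. In Mpglr-9 13 rose and 13 fell (37.1% each, beside 27.6% and 27.2%; median 0.08), and 12 rose and 9 fell in both genotypes. The WT shares were near those of all genes, and the Mpglr-9 shares were above them. These shares were not tested against each other, so no result about the family is read from the counts. MpBHLH51 (Mp8g06230) and MpBHLH4 had the largest changes. MpBHLH51, counted among those that rose, passed the filter for testing only through its damaged libraries. Its call was thus largely fixed in advance. MpBHLH51 had 2, 2 and 7 counts in intact WT libraries and 835, 833 and 277 counts in damaged ones, or 49.5, 34.3 and 12.3 CPM. Its damaged Mpglr-9 libraries had 35.7, 21.3 and 10.7 CPM. The replicates fell in the order seen for MpBHLH2 and MpBHLH3. MpBHLH1 rose from 37.1 ± 4.64 to 124.6 ± 19.1 CPM in WT (SD, n = 3), by 1.74 ± 0.11 (SE) on the log2 scale (edgeR, adjusted p = 2.5e-09).

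Of the MYB family, 45 genes were tested beside Mp1R-MYB16. In damaged WT lobes 13 rose, 9 fell and 23 were not called (median log2 fold change 0.05), and in Mpglr-9 14 rose and 9 fell (median 0.09). The share that rose was 28.9% in WT and 31.1% in Mpglr-9, near the 27.7% and 27.6% of all tested genes. The share that fell was 20% in each genotype, beside 27.8% and 27.2% of all tested genes. No result about the family is read from these counts. With upper-quartile scaling 9 rose and 10 fell in WT, and 9 rose and 11 fell in Mpglr-9. The shares of all tested genes under that scaling are not given here, so nothing is read about the family from this shift. Among the 19 other 1R-MYB genes 3 rose, 4 fell and 12 were not called in each genotype. These were 15.8% higher and 21.1% lower, beside 27.7% and 27.8% of all tested genes in WT. In Mpglr-9 the shares of all tested genes were 27.6% and 27.2%. With so few genes, nothing is read about the class from these counts. MpR2R3-MYB14, an activator of phenolic pigment synthesis in Marchantia, had 1.51, 1.52 and 1.17 CPM in intact and 16.2, 9.77 and 4.71 CPM in damaged WT libraries, with a log2 fold change of 2.87 ± 0.46 (adjusted p = 6.1e-05). MpR2R3-MYB20 rose 4.22-fold in WT, from 65.2 ± 9.99 to 275.3 ± 54.2 CPM (SD, n = 3). MpR2R3-MYB15 fell by 0.90 on the log2 scale.

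**Figure D5:**
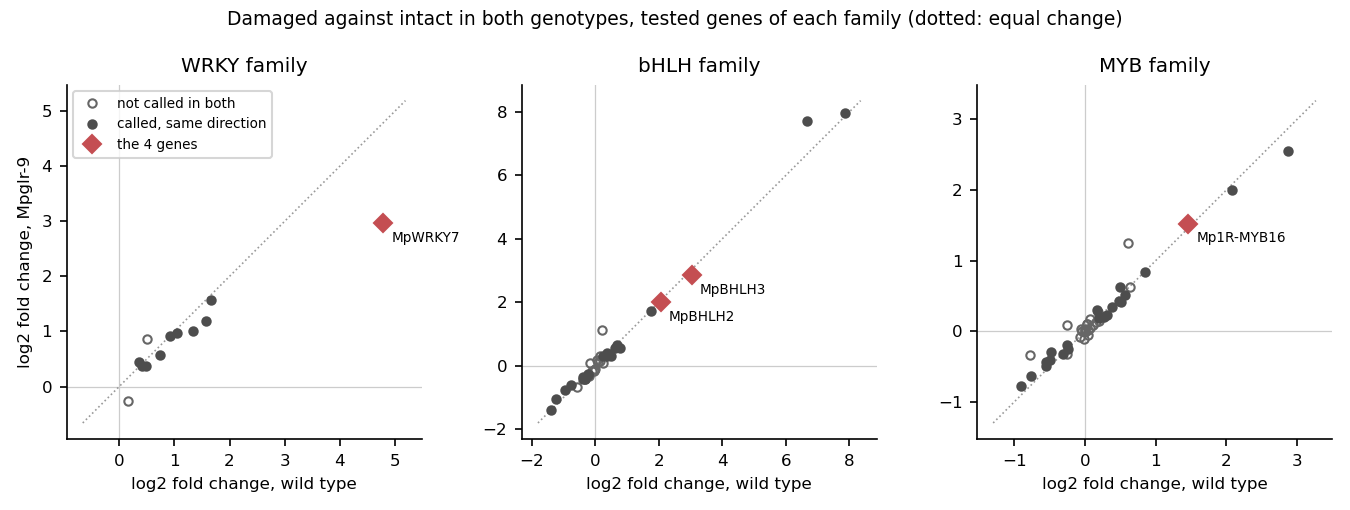
Log2 fold change from intact to damaged thallus in WT (horizontal) and Mpglr-9 (vertical) for the tested WRKY, bHLH and MYB genes. Filled points were called in the same direction in both genotypes, open points were not, red diamonds are the 4 chosen genes and the dotted line marks equal change. Most points lie near the line, and MpWRKY7 lies below it at 4.79 and 2.97, a difference that was not called.

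Away from the wound no change was called in these families, nor in any other tested gene by edgeR, so this is no result about the families. No other WRKY, bHLH or MYB gene was called in systemic lobes of either genotype, between genotypes in any condition, or in either interaction. In WT systemic lobes 1 of 11 WRKY genes, 2 of 35 bHLH genes and 0 of 45 MYB genes had an unadjusted p under 0.05 in edgeR. These stand beside 353 of all 13450 tested genes. In Mpglr-9 the counts were 1, 0 and 2, beside 810. MpBHLH4 was among the bHLH genes in WT, with a log2 difference of -1.34 ± 0.56 (SE; edgeR, unadjusted p = 0.0323).

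Jasmonate-type signalling acts through the receptor COI1 and the JAZ repressors, which bind MYC-type bHLH factors, with NINJA as an adaptor of the repressors. MpJAZ rose from 35.5 ± 1.58 to 182.2 ± 26.9 CPM in WT (SD, n = 3). Its log2 rise was 2.36 ± 0.10 in WT (edgeR, adjusted p = 1.7e-11) and 2.42 ± 0.10 in Mpglr-9. Systemic lobes had 35.6 ± 1.32 CPM of MpJAZ in WT and 38.9 ± 2.63 CPM in Mpglr-9. MpCOI1 fell by 0.32 in WT and by 0.25 in Mpglr-9 on the same scale. MpNINJA rose by 0.16 in both. None of these 3 genes was called in systemic lobes or between genotypes. MpMYCX and MpMYCY have no symbol in the names used and were not analysed here.

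For each of the 4 genes the 3 genes with the most similar pattern were found by Pearson correlation of log2 CPM over the 18 libraries, among 12176 tested genes with a mean of at least 1 CPM. MpWRKY7 was most like MpDIR51 (r = 0.973), Mp8g18590 (0.969) and MpGH19.4 (0.967), the last a glycoside hydrolase of the family that holds many plant chitinases. MpDIR51 had 13.1 ± 6.97 CPM in damaged and 0.412 ± 0.135 CPM in intact WT libraries (SD, n = 3). For MpBHLH2 the nearest were Mp8g16400 (r = 0.994), Mp2g22350 (0.994) and Mp7g14660 (0.993), none with a symbol.

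MpBHLH3 was nearest to MpMATE14 (r = 0.993), of a family of efflux transporters, MpNPF26 (0.991), of a family of nitrate and peptide transporters, and Mp6g06900 (0.991). Mp1R-MYB16 was nearest to the cytochrome P450 gene MpCYP97A35, Mp2g11670 and Mp4g16370 (r = 0.996 for each). All 12 of these genes were higher in damaged lobes of both genotypes, which the way they were found largely fixes. A correlation over 0.9 was common, held by 883 genes for MpWRKY7, 1781 for MpBHLH2, 1933 for MpBHLH3 and 1891 for Mp1R-MYB16, with the 6 damaged libraries above the rest for each of the 4 genes. With Spearman correlation, which weighs order within the conditions more, only Mp8g16400 for MpBHLH2 stayed among the nearest 3. The 4 genes were correlated with each other at r = 0.909 to 0.980, lowest for MpWRKY7 with MpBHLH3 and highest for MpBHLH2 with Mp1R-MYB16.

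Some marker genes of cell types moved with wounding as well, and others were not called. The 3 genes of photosynthetic thallus, MpRBCS, MpCHLD and MpCHLI1/2-like, were all called lower in damaged WT lobes. Of 29 genes of dividing cells 26 were tested, and the summed level of the list was 2194 to 2366 CPM in intact and 1645 to 1900 CPM in damaged WT libraries. These genes did not move alike. Most were called lower in WT, beside 27.8% of all tested genes, down to a log2 fold change of -1.64 for MpH3.1d. The tested MpH3.1 and MpH4 genes, MpCYCB_1 and MpCDKB were all among these. The list took histone genes by name, without a check that each marks dividing cells. MpH2A.Z, MpH3.3b and MpH2A.X.2 were not called in either genotype, and MpH2B.1 was called higher in both (0.21 in WT and 0.27 in Mpglr-9). The 5 oil body cell genes summed to 138 to 168 CPM in intact and 384 to 534 CPM in damaged WT libraries. Only MpC1HDZ, a regulator of oil body cells, was called higher among these 5 in WT (log2 fold change 2.01 ± 0.15). MpSYP12B was lower in WT (-0.46, adjusted p = 0.0301), and MpERF13, MpABCG1 and MpR2R3-MYB2 were not called. In Mpglr-9 MpC1HDZ was higher (1.99 ± 0.15), MpR2R3-MYB2 was higher (0.27, adjusted p = 0.0144) and MpSYP12B was not called (0.24, adjusted p = 0.256). The rhizoid gene MpBHLH14 had 20.0 to 22.1 CPM in intact and 14.1 to 21.1 CPM in damaged WT libraries. It was not called in WT (edgeR, adjusted p = 0.123) and was lower in Mpglr-9 (-0.33). The 2 gemma cup genes summed to 58.0 to 66.7 and 43.5 to 48.8 CPM, mostly from MpKAR, and were not called alike. MpKAR was called lower in WT (-0.57). MpGCAM1 went from 5.40 ± 5.02 to 8.32 ± 0.613 CPM in WT (SD, n = 3) and was not called in either genotype. The 5 antheridium and sperm genes had 239.3 to 247.4 and 198.1 to 236.01 CPM in sum. The 2 archegonium and egg genes had 234.5 to 251.2 and 225.7 to 237.6 CPM in sum, and neither was called in either genotype. The antheridium sum was nearly all MpTUB2, a tubulin gene, at 238.0 ± 4.09 CPM in intact WT libraries (SD, n = 3), while MpPRM and MpBHLH20 of that list had no count in damaged WT libraries and MpDUO1 had 1.34 ± 0.883 CPM. The part of any of these cell types in the levels of the 4 genes was not tested.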

How the data were processed

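The authors deposited raw read counts per gene for 18 libraries of poly-A selected RNA. HISAT2 and HTSeq were used, per the submitters' processing notes. Versions, options, strand use and genome build: not given in the sources used here. A further 3 columns of the table are empty and belong to no sample. Symbols were taken from RefSeq genes on assembly MpTak2_v7.1, whose locus tags matched 17384 of the 19355 identifiers (89.8%), with a symbol for 3091. No coordinates were used, and no sequence is shown.

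For the tests, edgeR 4.0.16 (R 4.3.3) was run with filterByExpr by group, TMM scaling, and a robust quasi-likelihood fit of 6 group means to all 18 libraries, since 3 per group give few degrees of freedom. Tests were two-sided, with Benjamini-Hochberg adjustment over all 13450 genes within a comparison, and calls were made below 0.05. The standard error is the log2 fold change divided by the square root of F, and 95% intervals are ± 1.96 SE. The multiplier 1.96 leaves out the limited degrees of freedom of the F test, so these intervals are somewhat too narrow. For MpWRKY12 in damaged lobes, the mutant to WT ratio had an interval of 0.613 to 0.999 at an unadjusted p = 0.0678 from edgeR. CPM use TMM-scaled library sizes. Principal components and correlations used log2 CPM with a prior count of 2. The fit was tested on simulated counts in which far fewer genes changed than were called here, and only in damaged WT lobes. That test does not cover a contrast in which 55.5% of tested genes were called. Alternatives were DESeq2 1.42.0, limma-voom (limma 3.58.1), RLE and upper-quartile scaling, no filter, a stricter filter (1 CPM in 3 libraries), a fit on the compared groups, a replicate block, and leaving out each library.

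Replicate numbers were taken to pair 2 groups where each correlation of deviations from the group means over genes was above 0.1. This held between WT and Mpglr-9 in intact plants (0.314 or more) and in damaged lobes (0.117 or more), and not in systemic lobes (lowest 0.037) or between intact and damaged or systemic libraries of 1 genotype. It also held between damaged and systemic Mpglr-9 (0.113 or more) and between damaged WT and systemic Mpglr-9 (0.109 or more), which were not compared. Libraries of unequal number were not correlated, so the rule does not show that the number is what ties the libraries. No 2 libraries were identical. The p-values measure the spread between replicates that are pools of 9 plants.

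The 4 genes and the gene lists were chosen with earlier results of these data known. Named besides them were the 3 called genes of each family with the largest change in damaged WT lobes, fixed genes of jasmonate-type signalling, the 3 most similar genes of each, and neighbours within 3 steps of locus order. MpWRKY3, MpWRKY4, MpWRKY6 and MpWRKY14 were added after their values were seen.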

Additional observations from a re-analysis of the deposited data

How the results depend on the processing

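The rise of the 4 genes in damaged lobes kept its direction under each alternative run, at log2 fold changes in WT of 4.32 to 5.11 for MpWRKY7, 1.89 to 2.24 for MpBHLH2, 2.78 to 3.24 for MpBHLH3 and 1.37 to 1.52 for Mp1R-MYB16, and in Mpglr-9 of 2.47 to 4.31, 1.79 to 2.17, 2.69 to 2.98 and 1.43 to 1.62. None of the 4 genes reached an adjusted p under 0.05 in a systemic, genotype or interaction comparison under any alternative, the replicate block included. Small counts of called genes moved more. With DESeq2 they were 6 for systemic against intact in WT, 23 for the mean of both genotypes, and 6, 28, 31 and 107 for Mpglr-9 against WT in intact, damaged and systemic thallus and on average. With the replicate block in the fit of all libraries they were 1 and 11 for systemic against intact in WT and on average, and 9, 16 and 84 for the genotypes in damaged and systemic lobes and on average. The fit of the compared groups gave 2 in damaged and 28 in systemic lobes, and with the replicate block, chosen after the data were seen, 10 in intact plants and 47 in damaged lobes. The cause was not tested.

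Leaving out 1 library at a time gave 6730 to 7513 called genes for damaged against intact in WT and 6418 to 7537 in Mpglr-9, 0 to 3 for systemic against intact in WT, 3 to 11 for the genotypes in damaged and in systemic lobes, 21 to 59 for their mean, and 0 to 1 for the damaged interaction. None of the differences that changed sign without single libraries had been called. For systemic against intact these ran from -0.31 to 0.15 for MpBHLH3 and -0.089 to 0.024 for Mp1R-MYB16 in WT, from -1.31 to 0.52 for MpWRKY7 and -0.26 to 0.063 for MpBHLH3 in Mpglr-9, and from -0.21 to 0.023 for MpBHLH3 on average. Between genotypes they ran from -0.080 to 0.22 for MpBHLH2 and -0.082 to 0.067 for Mp1R-MYB16 in intact plants, from -0.72 to 0.021 for MpWRKY7, -0.20 to 0.19 for MpBHLH2 and -0.18 to 0.28 for MpBHLH3 in damaged lobes, from -0.038 to 0.23 for MpBHLH2 and -0.055 to 0.41 for MpBHLH3 in systemic lobes, and from -0.0046 to 0.12 for MpBHLH2 and -0.031 to 0.022 for Mp1R-MYB16 on average. For the interactions they ran from -0.27 to 0.12 for MpBHLH2 and -0.38 to 0.071 for MpBHLH3 in damaged lobes, and from -0.74 to 1.09 for MpWRKY7, -0.11 to 0.19 for MpBHLH2 and -0.26 to 0.20 for MpBHLH3 in systemic lobes. The last MpWRKY7 value was 0.60 with limma-voom. MpWRKY7 had 0 to 37 counts per library outside damaged lobes, where depth limits its values.

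Over all alternatives 8 to 9 other WRKY genes rose in WT and 9 to 10 in Mpglr-9, 11 to 14 and 12 to 15 bHLH genes, and 9 to 14 and 9 to 15 MYB genes. Those that fell numbered 0 in WT and 0 to 1 in Mpglr-9 for WRKY, 9 to 13 and 9 to 15 for bHLH, and 8 to 10 and 6 to 11 for MYB. Without both damaged libraries numbered 3, a choice made after the data were seen, 9 and 10 WRKY genes rose.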
